A study of Mus musculus with 6 samples.

Results

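The genes described here encode 9 enzymes or enzyme subunits that make superoxide or hydrogen peroxide: Nox4, Cyba, Cybb, Ncf1 and Ncf4 of the NADPH oxidases, and the oxidases Xdh, Hao2, Dao and Maob. They were taken by gene symbol from a table of 22040 genes, each symbol matched 1 row, and all 9 were among the 13609 genes with enough counts to be tested. RNA-seq was done on total RNA of the renal cortex of C57BL/6 mice, labelled wild type (WT) in all 6 sample titles. In the injured group (IR24h, 3 libraries) both renal pedicles were clipped for 30 min and the kidneys were taken after 24 h of reperfusion, a model of acute kidney injury, and the other group had sham surgery (3 libraries). The sources used here name neither sex nor age, nor do they say if mice were pooled or shared between libraries, so the p-values measure the spread between libraries.

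NADPH oxidases carry electrons from NADPH across a membrane to oxygen. In phagocytes the catalytic subunit, encoded by Cybb, sits in the membrane with the subunit encoded by Cyba, and cytosolic proteins, among them those encoded by Ncf1 and Ncf4, must join it before it makes superoxide for the killing of microbes. The enzyme encoded by Nox4 also pairs with the Cyba product but needs no cytosolic partners, makes mainly hydrogen peroxide, and is known for its high level in the kidney tubule. The other oxidases release hydrogen peroxide as a side product of metabolism. Those encoded by Hao2 and Dao act on hydroxy acids and D-amino acids in the peroxisome, a main compartment of the proximal tubule cell. Xanthine oxidoreductase (Xdh) acts on purines in the cytosol, and monoamine oxidase B (Maob) on amines at the outer mitochondrial membrane.

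Of these 9 genes, Nox4, Hao2 and Dao were lower in injured than in sham cortex, by 3.11, 2.51 and 2.44 on the log2 scale, and 0 were called higher. A gene was called at a Benjamini-Hochberg adjusted p under 0.05 in edgeR's quasi-likelihood test over all 13609 genes. In that test 7.62% of all genes were called lower and 8.65% higher. At an unadjusted p under 0.05, 1 of the 9 was higher (Ncf1) and 3 were lower, against 18.7% and 15.5% of all genes. DESeq2 called 1 of the 9 higher (Ncf1; 15.2% of all genes higher, 12.5% lower) and limma-voom 0 (7.39% higher, 8.8% lower). For Cybb, Ncf4 and Maob, IR24h library 2 lay on the other side of the sham libraries from IR24h libraries 1 and 3.

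The libraries held 12877237 to 15998975 counts in the IR24h group and 14339985 to 17061844 in the sham group. Genes of the mitochondrial genome took 68.9, 26.2 and 49.2% of the counts in IR24h libraries 1 to 3. In sham libraries 1 to 3 they took 13.1, 14.2 and 14%, so fewer counts were left for nuclear genes in IR24h. The gene length behind the authors' FPKM values (fragments scaled by gene length and library depth), recovered from count and FPKM, differed between the groups by over 0.01 on the log2 scale for 13.1% of the 12806 genes compared. It was equal for 7 of the 9 genes. For Xdh it was 4587 bases in IR24h against 11744 in sham, and for Ncf4 3123 against 3002 bases. The library total behind the FPKM exceeded the listed counts by 7.91, 8.35 and 9.74% in sham libraries 1 to 3. In each IR24h library it exceeded them by 0%. The groups may thus have been counted in different ways. Any effect of that cannot be told apart from injury, also for genes of equal length. Of the markers of the labelled tissue, the proximal tubule phosphate transporter gene Slc34a1 had 308 ± 116 CPM in IR24h, where it was called lower, and 5864 ± 335 CPM in sham (mean ± SD, n = 3 each; CPM are counts scaled to a common depth with TMM library factors).

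The stretches of DNA just before the transcription starts that RefSeq lists for the 3 genes called lower are shown. These are the members that were called in the same direction. RefSeq (GRCm38.p6) held such a stretch for 6 of the 9 genes. Each run below is the 250 bases before the RefSeq start, 5′ to 3′ on the gene's strand, with matches to the motifs searched in capitals. The gene spans given further on are from GENCODE, whose starts can differ from these. The Nox4 run lies wholly inside its GENCODE span (87246096 to 87398710). Most of the Dao run lies past the GENCODE start at 114003703. These were GTTAAT (half-site of HNF1, a factor of the proximal tubule), CAAAGT (half-site of HNF4), GAGGAA (core of the PU.1 site of myeloid genes) and TGANTCA (AP-1 site), on both strands, so that a match on the other strand is printed as its reverse complement. No searched motif shared a position with another in these runs.
Nox4, chr7:87246399-87246648, plus strand: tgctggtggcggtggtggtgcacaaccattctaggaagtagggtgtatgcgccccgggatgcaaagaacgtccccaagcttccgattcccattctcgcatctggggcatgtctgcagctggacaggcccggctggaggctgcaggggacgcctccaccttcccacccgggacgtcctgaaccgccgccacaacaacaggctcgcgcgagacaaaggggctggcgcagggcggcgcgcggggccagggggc
Hao2, chr3:98893231-98893480, minus strand: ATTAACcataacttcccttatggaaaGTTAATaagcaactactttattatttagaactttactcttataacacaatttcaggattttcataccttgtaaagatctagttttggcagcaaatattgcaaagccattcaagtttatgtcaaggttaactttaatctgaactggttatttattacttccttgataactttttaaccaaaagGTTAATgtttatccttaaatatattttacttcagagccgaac
Dao, chr5:114003634-114003883, plus strand: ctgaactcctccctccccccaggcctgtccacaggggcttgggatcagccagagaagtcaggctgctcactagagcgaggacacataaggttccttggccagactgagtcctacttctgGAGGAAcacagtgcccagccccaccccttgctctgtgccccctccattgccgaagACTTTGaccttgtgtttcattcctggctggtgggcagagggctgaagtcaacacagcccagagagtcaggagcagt
The Hao2 stretch held 3 matches to GTTAAT, whose first bases lay 250, 224 and 42 bases before the start. Of all 32851 such stretches, 6.43% held at least 1. The Nox4 stretch held no match to any of the 4 motifs. For Dao, RefSeq lists 3 starts, and the stretch before the second is printed since it alone held a match, with CAAAGT (in 12.6% of all stretches) 76 bases and GAGGAA (in 23.3%) 131 bases before the start. The Hao2 stretch was 28.4% G and C, against 67.2% for Nox4 and 58.8% for the printed Dao stretch. Among the phagocyte subunits, the Cybb stretch held 1 AP-1 match (in 6.75% of all) and the Ncf1 and Cyba stretches none of the 4. The Cybb stretch (chrX:9469325-9469574, minus strand) lies well inside the GENCODE span of Cybb (9435252 to 9487771). A match is a run of letters and was not tested as a binding site.

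Nox4 (ENSMUSG00000030562; chromosome 7, 87246096 to 87398710, plus strand, GRCm38) had 16.9, 93.5 and 28.9 CPM in IR24h libraries 1, 2 and 3, against 396, 431 and 377 CPM in sham libraries 1, 2 and 3. Every IR24h value lay under every sham value, with IR24h library 2 the nearest to sham. Over all genes tested, the groups did not overlap in this direction for 21.7%. The IR24h libraries kept 4.21, 23.3 and 7.21% of the sham mean. The means were 46.4 ± 41.2 CPM in IR24h and 401 ± 27.4 CPM in sham (SD, n = 3 each), an 8.64-fold higher level in sham. The log2 fold change was −3.11 ± 0.63 (SE; edgeR adjusted p = 0.0179). An exact permutation test of log2 CPM, 2-sided, gave p = 0.1, and 3 libraries against 3 cannot give less. Nox4 was no longer called without sham 1, 2 or 3 (adjusted p = 0.0644, 0.07 and 0.0725), without IR24h 3 (0.0605) or when scaled by library size alone (0.0526), each time with IR24h lower. The share of all genes called lower was then 1.7, 1.53 and 1.41% (without sham 1, 2 and 3), 5.41% (without IR24h 3) and 4.49% (library size alone, with 2.92% higher). Without IR24h 2 it changed by −4.13 (adjusted p = 2.78e-04). In bulk tissue, fewer cells of a type and less RNA per cell cannot be told apart.

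Cyba (ENSMUSG00000006519; chromosome 8, 122424776 to 122432930, minus strand), the shared membrane partner of both catalytic subunits, was the most abundant of the 9 per length. It had 183, 89 and 304 CPM in IR24h libraries 1 to 3, against 360, 331 and 460 CPM in sham libraries 1 to 3. The groups did not overlap, and IR24h library 2 was the lowest. The means were 192 ± 108 CPM in IR24h and 384 ± 67.7 CPM in sham (SD, n = 3 each), a difference that did not pass the test (edgeR adjusted p = 0.157). The log2 fold change was −2.10 with IR24h 2 as the only injured library and −0.66 without it (adjusted p = 0.0879). Where IR24h 2 stands alone, here and for the genes that follow, the injured arm has no replicate and the sham libraries alone give the spread, so that single-library values are given without a p. Within each library, the authors' FPKM of Cyba exceeded that of Nox4 by 88.9, 7.83 and 86.3 times in IR24h libraries 1 to 3 and by 7.47, 6.31 and 10 times in sham libraries 1 to 3. IR24h libraries 1 and 3 thus stood apart from the other 4 in this ratio.

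**Figure D1:**
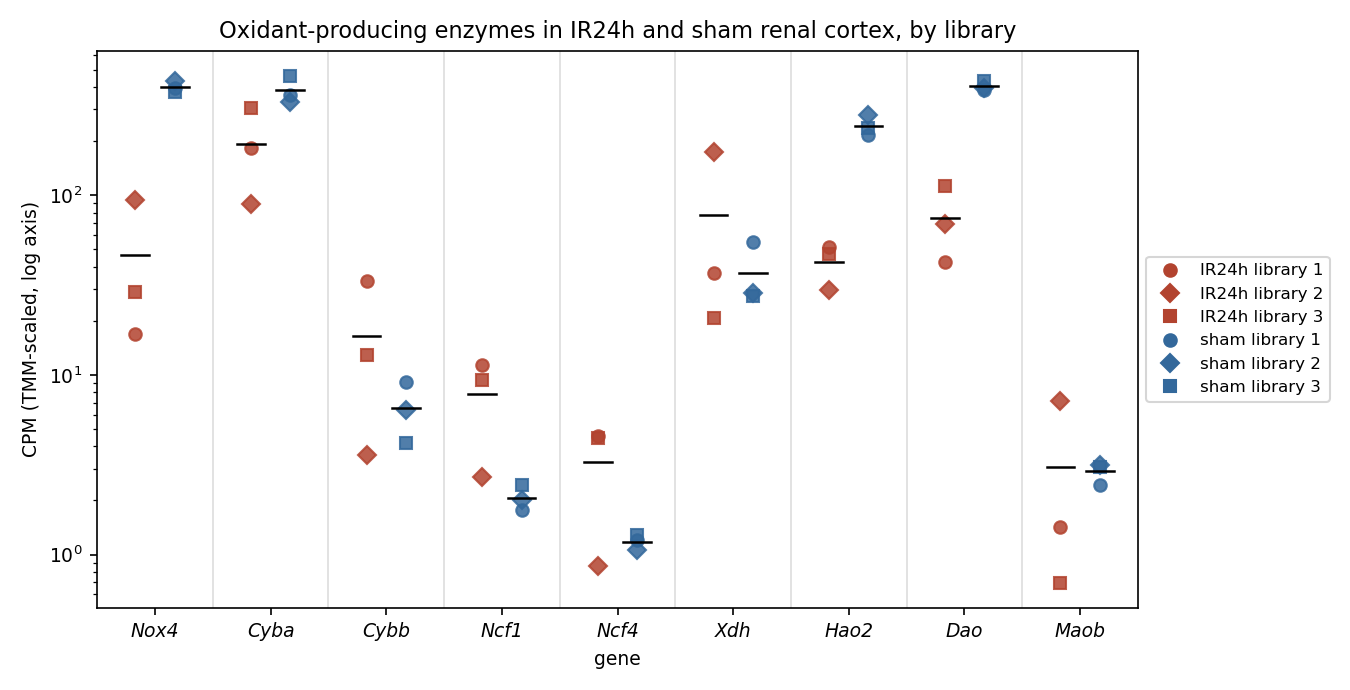
Level of each gene in CPM (log axis) in the 3 IR24h libraries (red, left) and the 3 sham libraries (blue, right), with a symbol shape for each library number and a bar at the group mean. Nox4, Cyba, Hao2 and Dao had every IR24h value under every sham value, Ncf1 every IR24h value above, and the other 4 genes overlapped between the groups. Over all genes tested, every IR24h value lay under every sham value for 21.7% and above for 19.9%.

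The subunits of the phagocyte oxidase were low in sham cortex. Cybb (ENSMUSG00000015340; chromosome X, 9435252 to 9487771, minus strand), the catalytic subunit, had 33.1, 3.58 and 12.9 CPM in IR24h libraries 1 to 3, against 9.13, 6.34 and 4.2 CPM in sham libraries 1 to 3. IR24h libraries 1 and 3 lay above all sham libraries and IR24h library 2 below them, so the groups overlapped. Its log2 fold change was 1.32 ± 0.73 (edgeR adjusted p = 0.24). Ncf1 (ENSMUSG00000015950; chromosome 5, 134220053 to 134229625, minus strand) encodes the organiser that brings the cytosolic subunits to the membrane. It had 11.4, 2.71 and 9.34 CPM in IR24h libraries 1 to 3, against 1.77, 2.02 and 2.43 CPM in sham libraries 1 to 3, from 53 to 107 counts in IR24h and 31 to 45 in sham. The groups of Ncf1 did not overlap, as for 19.9% of all genes in this direction, and IR24h library 2 lay just above sham. Its log2 fold change was 1.89 ± 0.55 (edgeR adjusted p = 0.0539). Ncf4 (ENSMUSG00000071715; chromosome 15, 78244801 to 78262580, plus strand) encodes a further cytosolic subunit, which binds membrane lipids. It had 4.54, 0.868 and 4.45 CPM in IR24h libraries 1 to 3, against 1.2, 1.06 and 1.29 CPM in sham libraries 1 to 3. IR24h library 2 was the lowest of all 6 (log2 fold change 1.44 ± 0.64, edgeR adjusted p = 0.156).

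None of these 3 subunits was called in the fit of all libraries, and each was called higher without IR24h 2. Cybb then changed by 1.79 (edgeR adjusted p = 0.019), Ncf1 by 2.31 (adjusted p = 0.0011) and Ncf4 by 1.91 (adjusted p = 0.0035), in a fit that called 23.9% of all genes higher and 24.5% lower. Ncf1 was also called higher with upper-quartile scaling (10.1% of all genes higher, 7.07% lower) and with gene length as an offset (11.4% higher, 7.36% lower), but not with the replicate number as a block (5.98% higher, 6.19% lower). Without IR24h 1, Cybb changed by 0.31 (adjusted p = 0.769). With IR24h 2 alone against sham the values were −0.85, 0.40 and −0.43, in a fit that, with its spread from sham alone, called 18.8% of all genes higher and 19.3% lower. Of the exon bases of Ncf1, 11.1% overlap Gtf2ird2 on the opposite strand (log2 fold change 0.02 ± 0.35, edgeR adjusted p = 0.969). The sources used here do not say whether reads were counted by strand. Of the 50-base stretches of Ncf1 transcripts, 7.45% also occur in transcripts of other genes, against 0% for Cybb and Ncf4.

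Of 21 phagocyte marker genes, 20 were tested, 7 were higher and 0 lower in IR24h, with a median log2 fold change of 1.25 over the 20, against 0.05 over all genes tested. At an unadjusted p under 0.05, 10 were higher and 0 lower; DESeq2 called 10 higher and 0 lower and limma-voom 6 and 0. Their summed level was 310, 180 and 450 CPM in IR24h libraries 1 to 3, against 155, 141 and 141 CPM in sham libraries 1 to 3, and 14 of the 21 were highest in IR24h library 3, whereas Cybb was highest in IR24h library 1. Lyz2, the lysozyme gene of myeloid cells, averaged 58 ± 20.1 CPM in IR24h and 7.68 ± 0.695 CPM in sham (SD, n = 3 each; log2 fold change 2.91, edgeR adjusted p = 0.00315). Csf1r, the receptor gene of the macrophage growth factor, averaged 45.7 ± 25.3 CPM in IR24h and 36.8 ± 3.68 CPM in sham and was not called (adjusted p = 0.672). The neutrophil marker Ly6g and Mpo, the myeloperoxidase gene, were at 0 counts in all 6 libraries. The 7 called higher were Itgam, Cd68, Lyz2, Cd14, S100a8, S100a9 and Csf3r. The other 13 tested were not called. Among them, the macrophage marker Adgre1 had 0.284, 3.63 and 0.349 CPM in IR24h libraries 1 to 3. It had 4.39, 4.52 and 4.31 CPM in sham libraries 1 to 3 (log2 fold change −1.51, edgeR adjusted p = 0.241). Ptprc and C1qc changed by −0.06 and −0.19 on the log2 scale. S100a8 averaged 3.53 ± 3.04 CPM in IR24h and 0.172 ± 0.152 CPM in sham. S100a9 averaged 5.03 ± 3.4 CPM in IR24h and 0.106 ± 0.00915 CPM in sham, and Csf3r 3.01 ± 1.17 CPM in IR24h and 0.665 ± 0.276 CPM in sham. The part of phagocytes in the values of Cybb, Ncf1 and Ncf4 was not tested. The count of 7 was 13 without IR24h 2 (with 1 lower) and 4 without any 1 sham library. Of 8 lymphocyte markers 2 were tested, and edgeR, DESeq2 and limma-voom each called 0; at an unadjusted p under 0.05 there were 0. Lck, a kinase gene of T cells, averaged 1.52 ± 0.777 CPM in IR24h and 1.26 ± 0.507 CPM in sham, and Cd8a, a T cell coreceptor gene, 0.534 ± 0.755 CPM in IR24h and 1.45 ± 0.406 CPM in sham.

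Both peroxisomal oxidases fell. Hao2 (ENSMUSG00000027870; chromosome 3, 98874521 to 98893239, minus strand), which encodes the hydroxy acid oxidase of the kidney, had 51.4, 29.8 and 47.1 CPM in IR24h libraries 1 to 3, against 216, 278 and 236 CPM in sham libraries 1 to 3. Each IR24h library lay far under each sham library, and IR24h library 2 was the lowest. The means were 42.7 ± 11.4 CPM in IR24h and 244 ± 31.8 CPM in sham (SD, n = 3 each), a log2 fold change of −2.51 ± 0.30 (edgeR adjusted p = 0.00348). The exact permutation test gave p = 0.1 for Hao2 and for Dao, the smallest possible. Dao (ENSMUSG00000042096; chromosome 5, 114003703 to 114025682, plus strand), which encodes D-amino acid oxidase, had 42.6, 68.7 and 112 CPM in IR24h libraries 1 to 3, against 387, 393 and 431 CPM in sham libraries 1 to 3. The sham libraries lay close together, and the IR24h libraries spread over 2.63 times with library 1 the lowest. The means were 74.5 ± 35.1 CPM in IR24h and 404 ± 23.7 CPM in sham (SD, n = 3 each; log2 fold change −2.44 ± 0.39, edgeR adjusted p = 0.00827). Hao2 and Dao stayed called lower under every alternative run, with log2 fold changes of −3.06 to −2.31 for Hao2 and −2.86 to −2.16 for Dao.

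Genes that handle D-amino acids, hydroxy acids and monoamines, with peroxisomal import, formed a list of 9. Of 8 tested, 4 fell and 0 rose, with a median log2 fold change of −1.20 against 0.05 over all genes. At an unadjusted p under 0.05, 5 were lower and 0 higher, against 15.5% and 18.7% of all genes; DESeq2 called 5 lower and 0 higher and limma-voom 4 and 0. Agxt2, a mitochondrial aminotransferase of the glyoxylate pathway, averaged 22.2 ± 7.29 CPM in IR24h and 136 ± 2.95 CPM in sham, and stayed called without any 1 library. Grhpr, which reduces glyoxylate, averaged 58.9 ± 20.2 CPM in IR24h and 205 ± 29.4 CPM in sham. Pex5, the receptor that carries proteins into peroxisomes, averaged 37.6 ± 6.1 CPM in IR24h and 91.5 ± 2.14 CPM in sham. Ddc, the decarboxylase that forms dopamine and serotonin, averaged 23.4 ± 10 CPM in IR24h and 79.5 ± 9.6 CPM in sham. The calls of Grhpr, Pex5 and Ddc were lost without any 1 sham library (edgeR adjusted p = 0.0551 to 0.0885) and that of Ddc without IR24h 1 (0.056), so that the count of 4 was 1 without any 1 sham library, 3 without IR24h 1 and 7 without IR24h 2. Scaled by library size alone, 1 was called lower. Cat, the catalase gene, had the highest level of the uncalled genes of this list, 448 ± 205 CPM in IR24h and 967 ± 46.1 CPM in sham (log2 fold change −1.11, adjusted p = 0.081).

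Proximal tubule markers were lower beside Nox4, Hao2 and Dao. Of 16 tested, 9 fell and 0 rose (median log2 fold change −1.89). At an unadjusted p under 0.05, 15 were lower and 0 higher, against 15.5% and 18.7% of all genes, and DESeq2 and limma-voom each called 12 lower and 0 higher. The summed level of 15 of them, without the androgen-regulated gene Kap, was 3272, 5524 and 4150 CPM in IR24h libraries 1 to 3, against 19072, 19970 and 19687 CPM in sham libraries 1 to 3. With Kap, the sum of all 16 was 14089, 10600 and 17953 CPM in IR24h libraries 1 to 3, against 27874, 29845 and 32818 CPM in sham libraries 1 to 3. IR24h library 2 was thus the highest of the IR24h libraries without Kap and the lowest with it. Kap averaged 9898 ± 4435 CPM in IR24h and 10603 ± 2255 CPM in sham (edgeR adjusted p = 0.901). The part of these markers' cells in the lower levels was not tested. The count of 9 was 6 without IR24h 1 or without any 1 sham library, and 14 without IR24h 2.

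Xdh (ENSMUSG00000024066; chromosome 17, 73883895 to 73950196, minus strand) encodes the enzyme that forms xanthine and urate in purine breakdown. It had 37, 174 and 20.8 CPM in IR24h libraries 1 to 3, from 261, 3408 and 238 counts, against 55.1, 28.7 and 27.6 CPM in sham libraries 1 to 3, from 965, 597 and 512 counts. IR24h library 2 was the highest of all 6 and held 4.7 times the CPM of IR24h library 1 and 8.37 times that of IR24h library 3, while IR24h library 1 lay within the sham range and IR24h library 3 below it. The implied gene length was the same in the 3 IR24h libraries. The log2 fold change was 1.06 ± 0.76 (edgeR adjusted p = 0.357), −0.37 without IR24h 2 (adjusted p = 0.468) and 2.25 with IR24h 2 alone. Between the groups the implied length of Xdh differed, as given above, so counting and injury cannot be told apart there. Per kilobase of that length the level was 8.08, 37.9 and 4.53 CPM in IR24h libraries 1 to 3, against 4.69, 2.44 and 2.35 CPM in sham libraries 1 to 3, and with length as an offset the log2 fold change was 2.42 (adjusted p = 0.0693). Of the 50-base stretches of Xdh transcripts, 9.6% also occur in transcripts of other genes.

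Of 12 genes of purine breakdown and salvage 11 were tested, and edgeR called 1 lower, Adk, and 0 higher, against 7.62% and 8.65% of all genes (median log2 fold change 0.22). At an unadjusted p under 0.05, 2 were higher and 2 lower, against 18.7% and 15.5% of all genes; DESeq2 called 1 higher and 2 lower and limma-voom 0 and 1. Adk, adenosine kinase, which returns adenosine to AMP, averaged 40.5 ± 23.9 CPM in IR24h and 132 ± 9.46 CPM in sham (log2 fold change −1.70 ± 0.41, edgeR adjusted p = 0.0315). Its call was lost without any 1 library other than IR24h 2 (adjusted p = 0.078 to 0.12), and without IR24h 2 it changed by −2.31. Pnp, the phosphorylase that feeds hypoxanthine and guanine into the pathway, averaged 44.6 ± 19.2 CPM in IR24h and 90.8 ± 12.6 CPM in sham and was not called (adjusted p = 0.087), with a gene length that differed between the groups.

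Maob (ENSMUSG00000040147; chromosome X, 16709282 to 16817366, minus strand) had 1.42, 7.15 and 0.699 CPM in IR24h libraries 1 to 3, against 2.45, 3.17 and 3.07 CPM in sham libraries 1 to 3. These rest on 10, 140 and 8 counts in IR24h and 43, 66 and 57 in sham. IR24h library 2 lay above all sham libraries and IR24h libraries 1 and 3 below them. The means were 3.09 ± 3.54 CPM in IR24h and 2.9 ± 0.389 CPM in sham (SD, n = 3 each; log2 fold change 0.14 ± 0.77, edgeR adjusted p = 0.913). The log2 fold change of Maob was 1.31 with IR24h 2 alone, and without it Maob was called lower (−1.51, adjusted p = 0.0285).

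**Figure D2:**
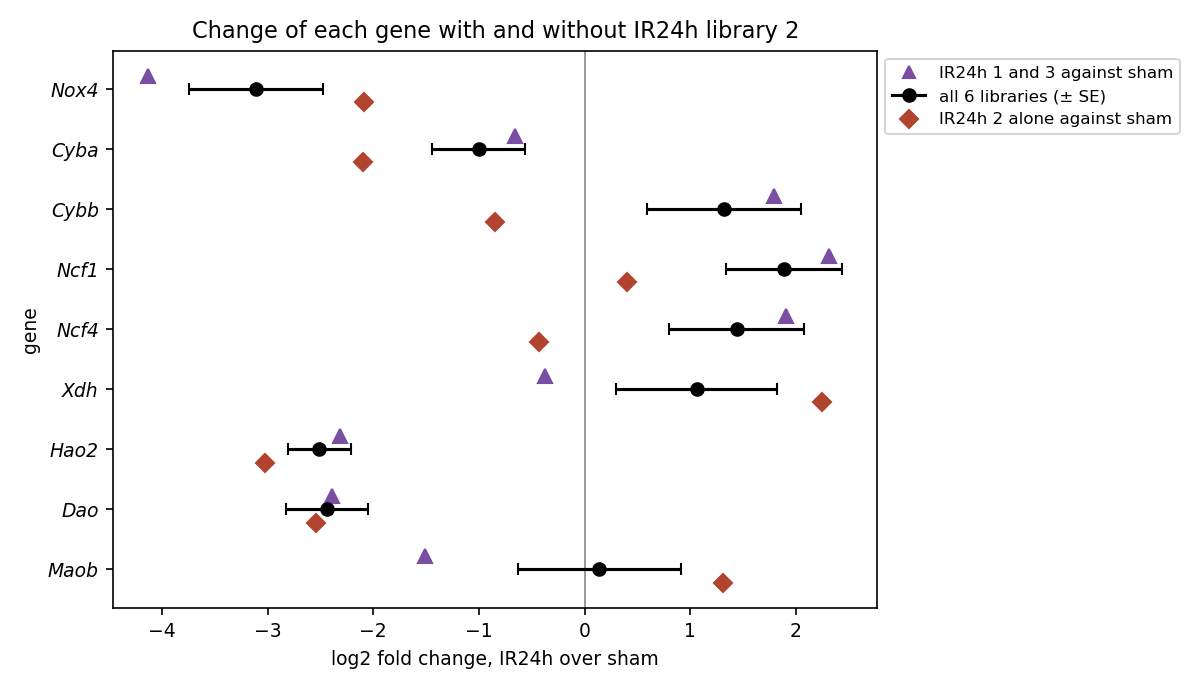
Log2 fold change of IR24h over sham for each gene, from all 6 libraries (circles, bars of ± SE), from IR24h 1 and 3 against sham (triangles) and from IR24h 2 alone against sham (diamonds). The signs of Cybb, Ncf4, Xdh and Maob differed between triangles and diamonds, while Hao2 and Dao lay on the lower side in all 3.

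IR24h library 2 differed from IR24h libraries 1 and 3 for 7 of the 9 genes. Its CPM was at least 2 times that of both for Nox4, Xdh and Maob, as for 13.5% of all genes tested. It was at most 1/2 of that of both for Cyba, Cybb, Ncf1 and Ncf4, the membrane and cytosolic subunits of the phagocyte enzyme, as for 15% of all genes tested. The fold of 2 was chosen after the values were seen. The mitochondrial share of counts was 26.2% in IR24h library 2, nearer to sham than the 68.9 and 49.2% of IR24h libraries 1 and 3. The part of this share in the differences was not tested. Other cell type markers set IR24h library 2 apart too. The summed level of 8 endothelial markers was 597, 88.5 and 590 CPM in IR24h libraries 1 to 3, against 394, 434 and 419 CPM in sham libraries 1 to 3. Of these 8, edgeR called 1 lower and 0 higher (4 higher and 1 lower without IR24h 2, 0 lower without any 1 sham library). Plvap averaged 175 ± 145 CPM in IR24h and 160 ± 21.5 CPM in sham, and Pecam1 47.9 ± 29.1 CPM in IR24h and 41 ± 2.45 CPM in sham. Among 8 adipocyte markers, Adipoq, Plin1 and Lep had 16, 12.6 and 22.2 CPM in IR24h library 2 and 0 counts in the other 5 libraries, except for Adipoq at 0.262 CPM in IR24h library 3. Of the adipocyte markers 2 were tested, both called higher (1, 0 and 1 without sham 1, 2 and 3). The others did not all single out IR24h library 2. Cidec had 6.81, 19.5 and 0.699 CPM and Cfd 3.12, 13.4 and 0 CPM in IR24h libraries 1 to 3, while Fabp4 had 66.7, 65 and 82.8 CPM and Pparg 2.27, 2.15 and 1.92 CPM there. The most abundant ones were Fabp4, at 71.5 ± 9.81 CPM in IR24h and 17.7 ± 5.15 CPM in sham, and Cidec, which was not tested, at 8.99 ± 9.57 CPM in IR24h and 0.087 ± 0.0266 CPM in sham. The part of these cells in the high Xdh and Maob values of IR24h library 2 was not tested.

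**Figure D3:**
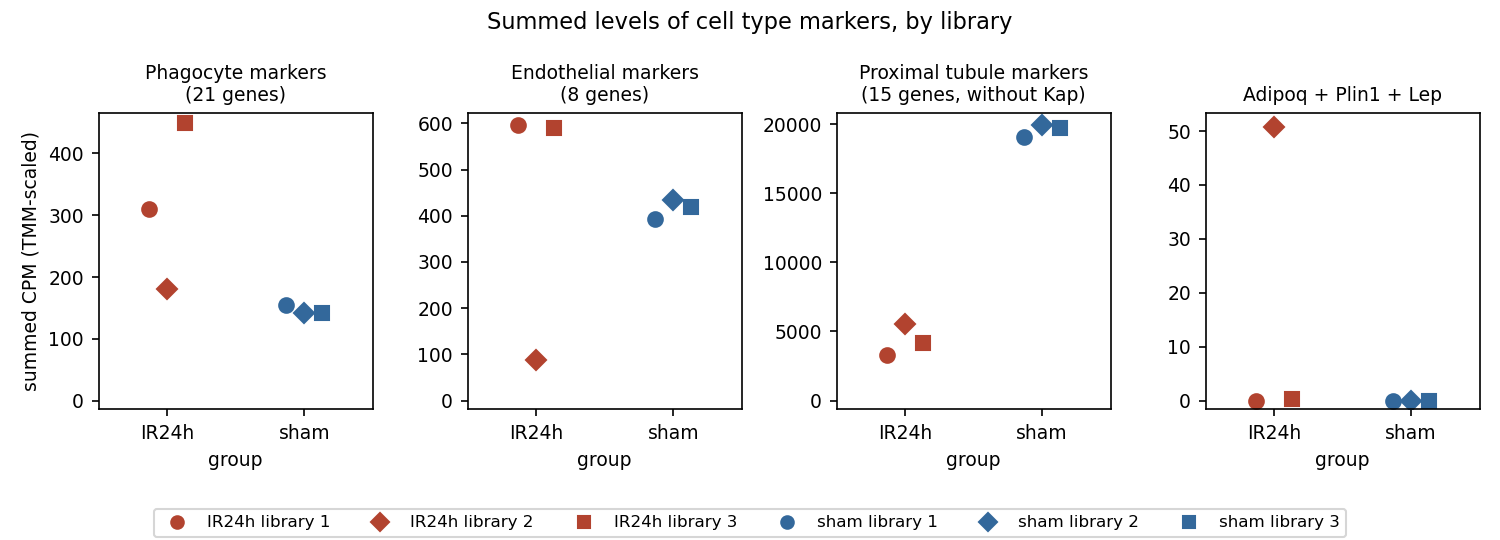
Summed CPM of phagocyte, endothelial and proximal tubule markers and of Adipoq, Plin1 and Lep, by library, with IR24h (red) left of sham (blue). IR24h library 2 (diamond) had the lowest endothelial sum, 88.5 CPM, the lowest phagocyte sum of the IR24h libraries, 180 CPM, and the highest sum of Adipoq, Plin1 and Lep, which were chosen after their values were seen.

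Levels can be set side by side between genes only per length, as in the authors' FPKM. In each sham library Cyba was highest, at 287 to 376 FPKM, followed by Hao2 (119 to 153), Dao (109 to 114) and Nox4 (37.5 to 45.5). Hao2 and Dao lay close together, since Hao2 exceeded Dao by only 1.09, 1.39 and 1.08 times in sham libraries 1 to 3. Xdh, Cybb, Maob, Ncf4 and Ncf1 followed at 5.31 FPKM or less, with Cybb and Maob changing places between the sham libraries. In IR24h, Cyba was again highest, at 77.1 to 202 FPKM, and Nox4 took place 7, 5 and 5 of the 9 in IR24h libraries 1 to 3, against place 4 in each sham library. Xdh stood above Nox4 in IR24h libraries 1 to 3 (4.42, 46.4 and 3.9 FPKM, against 0.868, 10.7 and 2.34). The length behind the Xdh FPKM was 4587 bases in IR24h and 11744 in sham, so the place of Nox4 depends in part on that length. Hao2 exceeded Dao by 2.37 times in IR24h library 1 and was 0.85 and 0.824 times Dao in IR24h libraries 2 and 3. The FPKM of Nox4 was 0.302, 15.4 and 1.32 times that of Cybb in IR24h libraries 1 to 3, against 25.6, 40.1 and 52.9 times in sham libraries 1 to 3. In IR24h library 1 Cybb thus lay above Nox4, and in the other 5 libraries Nox4 lay above Cybb. Ranked by FPKM among the 21957 genes with values in all libraries, Nox4 stood at place 8721, 2946 and 6696 in IR24h libraries 1 to 3 and at 638 to 816 in sham.

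Of 15 partners and relatives of the NADPH oxidases 8 passed the expression filter, of which 1 rose, 1 fell and 6 were not called (median log2 fold change 0.78; over all genes 8.65% rose and 7.62% fell). The catalytic genes Nox1, Nox3, Duox1 and Duox2, with Noxa1, Duoxa1 and Duoxa2, were the 7 that did not pass, and all 7 were at 0 counts in each IR24h library. Duox1 was the highest of them in sham, at 0.685, 0.625 and 0.216 CPM. Sh3pxd2b, a scaffold protein with a domain like that of the Ncf1 product, averaged 10.7 ± 3.09 CPM in IR24h and 4.04 ± 0.86 CPM in sham (log2 fold change 1.40 ± 0.35, edgeR adjusted p = 0.0358), with a gene length that differed between the groups. Poldip2, a protein that binds the Cyba product and raises the activity of the Nox4 enzyme, averaged 59.1 ± 9.24 CPM in IR24h and 114 ± 11.6 CPM in sham (−0.95 ± 0.24, adjusted p = 0.0381). Both calls were lost without any 1 library other than IR24h 2 (adjusted p = 0.0556 to 0.171), and without IR24h 2 there were 5 higher and 2 lower. DESeq2 called 2 higher and 2 lower, and the replicate block 0 and 0. Rac1, a small GTPase of the oxidase complex, averaged 63.1 ± 38.1 CPM in IR24h and 181 ± 7.74 CPM in sham and was not called (adjusted p = 0.0643).

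Other oxidases, most of which form hydrogen peroxide, went both ways. Of 28 tested of 31, 7 rose, 3 fell and 18 were not called (median log2 fold change −0.19). Over all genes 8.65% rose and 7.62% fell. The higher ones were extracellular amine oxidases, lysyl oxidases and the polyamine enzyme Smox. Aoc1, diamine oxidase, averaged 43.4 ± 57.4 CPM in IR24h and 2.03 ± 0.396 CPM in sham, with 110 CPM in IR24h library 3 against 14.2 and 6.54 CPM in IR24h libraries 1 and 2. Its log2 fold change was 4.41 ± 1.06 (edgeR adjusted p = 0.0308; limma-voom adjusted p = 0.091), and 2.33 without IR24h 3 (edgeR adjusted p = 0.0297). Aoc3, the amine oxidase of vessel walls and fat, averaged 10.3 ± 5.36 CPM in IR24h and 2.12 ± 0.259 CPM in sham and was highest in IR24h library 2, at 16.4 CPM. Smox, spermine oxidase, averaged 19.8 ± 5.64 CPM in IR24h and 5.8 ± 0.679 CPM in sham. The collagen cross-linking enzymes Lox, Loxl2, Loxl3 and Loxl4 rose by 2.80, 2.52, 2.30 and 3.03 on the log2 scale, to 8.25 ± 6.08, 45.9 ± 38.6, 10.4 ± 7.44 and 6.74 ± 3.8 CPM in IR24h, against 1.16 ± 0.624, 7.96 ± 1.56, 2.08 ± 0.183 and 0.805 ± 0.0616 CPM in sham. Without IR24h 1 the values of Lox, Loxl2 and Loxl3 were 2.02, 1.61 and 1.64, with the calls lost (edgeR adjusted p = 0.0741, 0.0635 and 0.101), and limma-voom did not call Loxl2 or Loxl3 (adjusted p = 0.0654 and 0.11). The gene length of Lox differed between the groups.

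The 3 lower ones work in peroxisomes and mitochondria. Pipox, which oxidises pipecolic acid and sarcosine in peroxisomes, averaged 133 ± 38.9 CPM in IR24h and 318 ± 39.4 CPM in sham. Acox3, a peroxisomal acyl-CoA oxidase, averaged 107 ± 31.9 CPM in IR24h and 310 ± 10.6 CPM in sham. Suox, mitochondrial sulphite oxidase, averaged 24.1 ± 17.5 CPM in IR24h and 81.7 ± 0.483 CPM in sham (log2 fold change −1.76, and −2.55 without IR24h 2). All 10 calls of this list were lost without any 1 sham library (adjusted p = 0.0558 to 0.151), and 10 were higher and 9 lower without IR24h 2. Without IR24h 1 there were 5 higher and 1 lower (6.04% and 5.08% of all genes), and without IR24h 3 there were 4 higher and 2 lower (5.87% of all genes higher). Without sham 1, 2 and 3 the share of all genes called higher was 2.03, 1.78 and 2.1%. Scaled by library size alone, 1 was higher and 2 lower, DESeq2 called 10 higher and 6 lower, and limma-voom 4 and 4.

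Of 5 tested nitric oxide synthases and haem peroxidases, edgeR called 0 higher and 0 lower (median log2 fold change 0.95). At an unadjusted p under 0.05, 2 were higher and 0 lower; DESeq2 called 2 higher and 0 lower and limma-voom 0 and 0. Pxdn, a peroxidase of the extracellular matrix, averaged 34 ± 19 CPM in IR24h and 18.9 ± 1.26 CPM in sham (edgeR adjusted p = 0.175). Without IR24h 2 there were 2 higher.

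**Figure D4:**
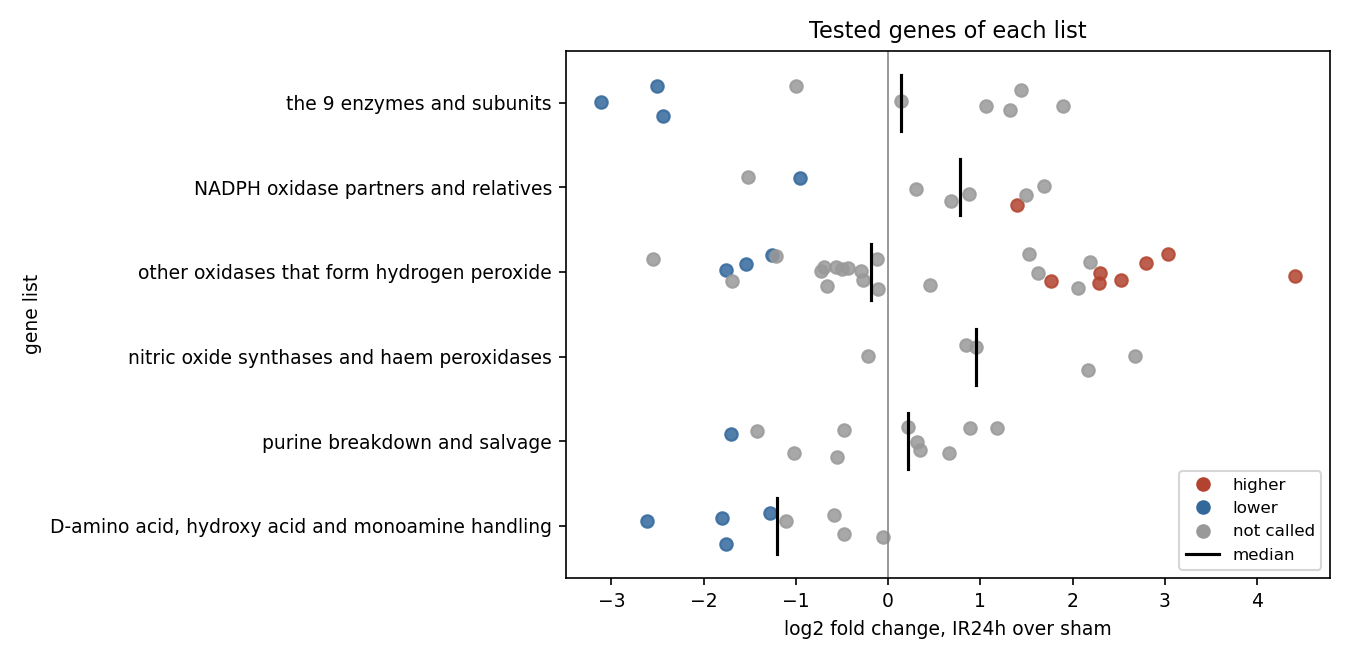
Log2 fold change of IR24h over sham for each tested gene of the 9 and of the 5 related lists, coloured by the edgeR call, with a bar at the median. The D-amino acid, hydroxy acid and monoamine list has the lowest median, −1.20, and the called genes of the other oxidases lie on both sides of 0.

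The genes whose levels ran most like those of each member were found by Pearson's r of log2 CPM over the 6 libraries, with 13609 genes compared. The libraries share their 2 groups and their scaling, so that r is a description only. They were Abcg2 and Irak2 for Nox4 (r = 0.9994 and 0.9992), Dctn3 and Ren1 for Cyba (0.9986 and 0.9961) and Gm21887 and Evi2b for Cybb (0.9949 and 0.9861). For Ncf1 they were Cox7c and Rpp21 (0.9990 and 0.9985), for Ncf4 Rps10 and Edem2 (0.9992 for both) and for Xdh Rap1b and Vps13d (0.9891 and 0.9885). For Hao2 they were Lrrc29 and Slc4a9 (0.9994 and 0.9989), for Dao Tor1a and Fam172a (0.9986 and 0.9983) and for Maob Ptpn3 and Stau2 (0.9940 and 0.9933). None of the 9 genes was among these for another of the 9.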

How the data were processed

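The RNA-seq libraries of renal cortex were 3 IR24h and 3 sham. CASAVA 1.8 and TopHat2 2.0.6 are named, with the builds mm10 and GRCh38, per the submitters' processing notes. The labels do not name the read counter, annotation or strand setting. The authors deposited, per the file headers, raw counts per gene, the values tested here, and FPKM values, used here to set levels of different genes side by side and to recover gene lengths. Of 22040 genes, 83 had no sham value, which left 21957. Positions came from GENCODE M21 (GRCm38, the assembly of mm10), matched by identifier.

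Counts were tested with edgeR 4.0.16 (TMM scaling, expression filter, quasi-likelihood test, 2-sided) in R 4.3.3 on all 13609 genes that passed the filter, with Benjamini-Hochberg adjustment over them. Standard errors were derived from the F statistic, and the common biological coefficient of variation was 0.394. CPM use TMM-scaled library sizes. Alternatives used limma 3.58.1 (voom), DESeq2 1.42.0, other scaling, no filter, left-out libraries, a replicate block and gene length as an offset, the last added after the data were seen. Tables were made in Python 3.11.15 (SciPy 1.17.1, pandas 2.3.3, NumPy 2.4.6) and figures with matplotlib 3.10.9. The members, the lists and the rules were chosen with earlier results of these data known. The named genes were the 9 members, the 2 most abundant genes of each cell type list and the 2 genes most like each member. Named too were each called gene of the related lists with at least 1 CPM in a group and the most abundant uncalled one. Ly6g, Mpo, Itgam, Cd68, Cd14, S100a8, S100a9, Csf3r, Adgre1, Ptprc, C1qc, Duox1, Adipoq, Plin1, Lep, Cfd, Pparg and Gtf2ird2 were named after their values were seen. The most abundant uncalled gene of the other oxidases is not reported here. Groups of 3 libraries limit the permutation test to p = 0.1.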

Additional observations from a re-analysis of the deposited data

How the results depend on the processing

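Over 16 alternatives, Hao2 and Dao were called lower each time, and Nox4 was lower each time, with a log2 fold change of −4.13 to −2.09. The count of the 9 genes called higher was 0 in the full set. It was 1 with upper-quartile scaling, 1 with DESeq2 and 1 with length as an offset (Ncf1 each time). Without 1 library it was 0 to 3. With IR24h 2 as the only injured library, Xdh and Maob changed by 2.25 and 1.31. The injured arm then has no replicate, is assumed to vary like sham, and shows no more than that library. The count called lower was 3, 2 with library size alone (Hao2 and Dao), and 2 to 4 without 1 library. Library size alone called 4.49% of all genes lower. Without IR24h 2, 3 of the 9 were higher and 4 lower, against 23.9% and 24.5% of all genes. With IR24h 2 as the only injured library, the largest falls were those of Hao2 (−3.02), Dao (−2.54), Cyba (−2.10) and Nox4 (−2.09). The count over all genes was 2214, 1009 with library size alone, 3768 with DESeq2, 5442 with IR24h 2 as the only injured library and 458 to 6679 without 1 library. Scaling by library size alone shifted the median of all genes to −0.39 on the log2 scale (0.05 with TMM), and 39.4% of the called genes were higher (398 higher, 611 lower), against 53.2% (1177 higher, 1037 lower). Signs reversed for Cybb (−0.85) and Ncf4 (−0.43) with IR24h 2 alone and for Xdh (−0.37) without IR24h 2. They also reversed for Maob with library size alone (−0.03), with limma-voom (−0.30), with the replicate block (−0.47) and without IR24h 2 (−1.51). Without 1 library the values ranged from −0.37 to 1.51 for Xdh and from −1.51 to 0.61 for Maob. The cause was not tested. Same-numbered libraries of the groups need not be paired: their deviations from the group means correlated at −0.109, 0.12 and 0.233. The replicate block called 3 of the 9 lower, 0 higher and 1657 genes in all. With 3 libraries a group and the spread of IR24h, a p that missed the threshold does not show that a gene did not differ. Maob and Ncf4 rested on as few as 8 and 17 counts in a library.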
